A study of Mus musculus with 12 samples.

Results

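The response of wild-type (WT) bone marrow macrophages to 24 h of interleukin-4 (IL-4) was measured across all genes in 2 WT libraries treated with IL-4 and 2 WT control libraries. These are 4 of the 12 RNA sequencing libraries of the series, picked by their sample titles, and no measured value entered that choice. For both groups, marrow cells had spent 6 days in medium with M-CSF at 10 ng/mL, a factor that turns them into macrophages. The IL-4 group, called M2 in the labels, then received 20 ng/mL IL-4 for 24 h, and the control group received no stimulus. Whether control cells were kept for the same further 24 h was not established here. If they were not, time in culture cannot be told apart from IL-4. The series also contains macrophages that lack Ptprz1, a receptor-type tyrosine phosphatase gene (KO), under the same 2 conditions, and cells of both genotypes given 100 ng/mL LPS and 10 ng/mL IFNγ for 24 h, with 2 libraries in each group.

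The strain label reads B6.129-Ptprz1tm1Nmo for every sample, WT included, and the titles of WT samples begin with B6. Ptprz1 had 0 and 7 counts in the IL-4 libraries and 0 counts in both control libraries, so its RNA does not check the genotype label of these 4 libraries. Nothing in the labels says that libraries of a group came from separate mice or cultures, and the p-values measure the spread between libraries of a group, estimated over all 12 libraries, which may be technical. The cells grew with M-CSF outside the animal, which limits them as a model of tissue macrophages.

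IL-4 binds a receptor made of the IL-4Rα chain with either the common gamma chain or IL-13Rα1. Janus kinases bound to the receptor phosphorylate STAT6, which moves to the nucleus and binds DNA as a dimer. Macrophages exposed to IL-4 are described as alternatively activated, a state known from worm infection, allergy and tissue repair and marked by arginase 1, chitinase-like proteins, lectins and fusion into giant cells.

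The libraries carried macrophage transcripts. Csf1r, the receptor of M-CSF, had 1472 and 1622 CPM, a count scaled to library size with TMM factors, in IL-4 libraries, against 1891 and 1812 CPM in control libraries. Of 16 core macrophage genes, 1 had no counts in the 4 libraries. The summed level of the 15 tested was 15070 and 15360 CPM in IL-4 libraries, against 20130 and 20330 CPM in control libraries. T cell genes Cd3e, Cd3d, Cd3g, Trac and Trbc2 and the mast cell protease genes Mcpt4, Tpsb2 and Cma1 had 0 counts in all 4 libraries. None of the 31 tested markers of granulocyte, eosinophil, B, T and NK, mast and basophil, erythroid and megakaryocytic, or stromal and endothelial cell types passed the test between IL-4 and control. By unadjusted p, 5 of those 31 fell under 0.05. The 3 tested B cell markers summed to 10.6 and 26.1 CPM in IL-4 libraries, against 61.1 and 65.4 CPM in control libraries. The 11 stromal and endothelial markers summed to 66.7 and 242 CPM in IL-4 libraries, against 75.1 and 392 CPM in control libraries, and this sum was higher in the library numbered 2 of each group. Of 3 tested dendritic cell markers, Batf3 rose. The part of these cell types in the results below was not tested.

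A total of 13525 genes were tested with edgeR's quasi-likelihood F test, fitted to all 12 libraries, and a gene is said to be called when its Benjamini-Hochberg adjusted p was under 0.05. Between IL-4 and control libraries 1222 genes were called, or 9.04% of those tested. Of these, 665 rose (4.92%) and 557 fell (4.12%). The called genes that rose took 13.2% of the counts in each of the IL-4 libraries, against 7.24% and 7.42% in the control libraries. The called genes that fell took 3.48% and 3.53% of the counts in IL-4 libraries, against 7.31% and 7.24% in control libraries. Fewer cells of a kind and less RNA per cell cannot be told apart in bulk RNA.

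Most changes were modest in size. The median log2 fold change was 0.81 among genes that rose and −0.96 among genes that fell, against −0.02 over all genes tested. The change was under 1 on the log2 scale for 421 of the genes that rose and 294 of those that fell. It reached 3 for 61 genes that rose and 26 that fell. The IL-4 and control libraries did not overlap for any called gene. Over all genes tested, both IL-4 libraries lay above both control libraries for 30.8% and below them for 33.3%, so separation of 2 libraries from 2 is not in itself evidence of a change. Calls were more frequent among well-expressed genes, at 3.24% of genes under 1 CPM in control libraries and 14.8% of those at 100 CPM or more.

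**Figure D1:**
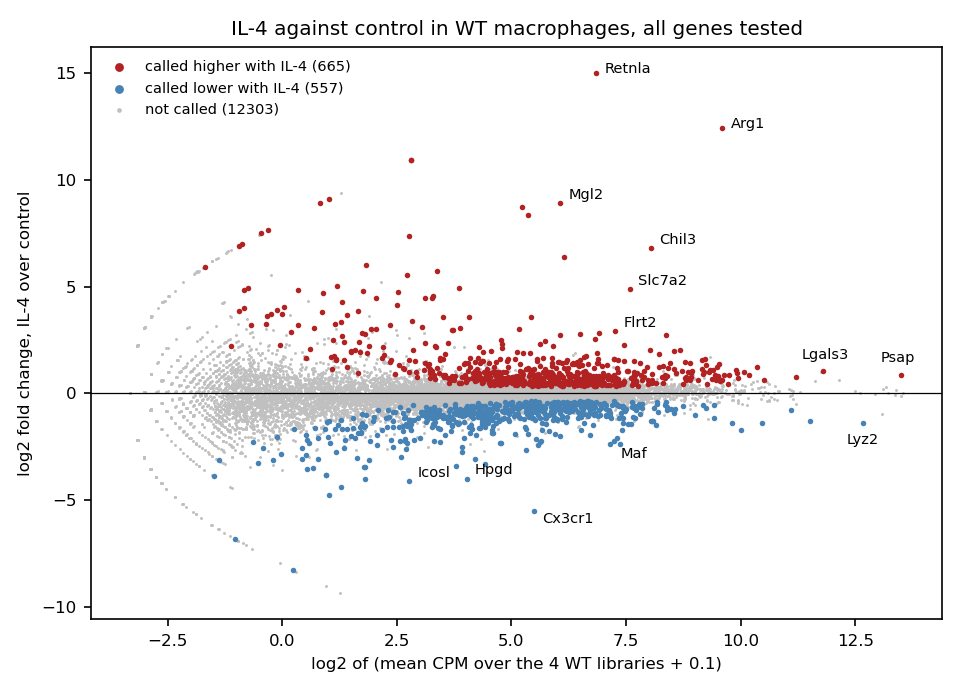
Each point is a gene tested in WT macrophages, with the log2 of its mean CPM over the 4 libraries plus 0.1 on the horizontal axis and the log2 fold change of IL-4 over control on the vertical axis. Red points are the 665 genes that rose, blue points the 557 that fell and grey points the rest. Genes with 0 counts in a whole group lie on the outer curves, where the fitted value is no measure of size.

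The number of calls depended on single libraries and on which libraries were fitted. Leaving out 1 library left 1 in its group, and calls over all genes dropped. Counts per list with a library left out, given below, are to be read beside that drop. Without IL-4 library 1 there were 236 calls, and without IL-4 library 2 there were 293. Without control library 1 there were 175 calls, and without control library 2 there were 252. Of the genes called with all libraries, 100 that rose and 56 that fell kept the call in all 4 of these fits, and none turned in sign. A fit to the 6 WT libraries alone called 3653 genes. Libraries of the KO groups differed more from each other than WT libraries did, with a chi-square per gene of 54.9 between KO IL-4 libraries and 48.4 between KO control libraries, against 15.6 between WT IL-4 libraries and 7.10 between WT control libraries.

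The largest increases were in genes that control macrophages hardly transcribed. Retnla, which encodes the secreted protein RELMα, had 219 and 243 CPM in IL-4 libraries, against 0 counts in both control libraries. Measured against 3 counts in the shallowest control library, Retnla was at least 1560-fold higher with IL-4 (adjusted p = 5.22e-04). Arg1, the cytosolic arginase that splits arginine into ornithine and urea, had 1499 and 1612 CPM in IL-4 libraries, against 0.0486 and 0.493 CPM in control libraries (log2 fold change 12.46, SE 0.91, adjusted p = 2.09e-04). Its log2 fold change was 11.60 without control library 1 and 14.77 without control library 2. The control libraries were thus near the limit of detection for both genes, and the IL-4 libraries lay close together.

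Upstream sequence is shown for those of the 15 most increased genes that held a spaced TTC and GAA pair, the letters of STAT dimer sites, in the 250 bases before the annotated gene start. Both motifs read the same on either strand. One has 4 bases of any kind between TTC and GAA, the spacing known for STAT6, and the other has 3, the spacing known for other STAT proteins. The sequences are from RefSeq on build GRCm38.p6, in the direction of transcription, and capitals mark the motif. Of the 15 genes, 12 had an entry and 5 held a motif. Of the 15 genes that fell most, 11 had an entry and 0 held a motif in these 250 bases. The share of all tested genes with either motif in these 250 bases was not computed. These counts therefore have no baseline and are a description only.
Retnla, chr16:48842359-48842608, plus strand: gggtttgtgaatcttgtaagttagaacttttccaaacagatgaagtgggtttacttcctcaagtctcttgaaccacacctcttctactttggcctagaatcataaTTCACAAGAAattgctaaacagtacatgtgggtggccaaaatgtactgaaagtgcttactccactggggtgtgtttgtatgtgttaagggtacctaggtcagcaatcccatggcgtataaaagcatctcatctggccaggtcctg
Pdcd1lg2, chr19:29410669-29410918, plus strand: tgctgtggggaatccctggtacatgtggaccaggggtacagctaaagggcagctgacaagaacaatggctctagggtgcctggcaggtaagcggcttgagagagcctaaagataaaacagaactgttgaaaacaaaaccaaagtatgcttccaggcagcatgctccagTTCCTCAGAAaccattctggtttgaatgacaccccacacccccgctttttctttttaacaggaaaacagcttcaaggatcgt
Tmem26, chr10:68723496-68723745, plus strand: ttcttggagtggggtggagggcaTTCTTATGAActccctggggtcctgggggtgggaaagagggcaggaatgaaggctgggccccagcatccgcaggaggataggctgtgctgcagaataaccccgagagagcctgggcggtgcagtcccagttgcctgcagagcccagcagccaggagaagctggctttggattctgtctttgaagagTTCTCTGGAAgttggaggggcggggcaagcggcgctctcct
Il31ra, chr13:112580663-112580912, minus strand: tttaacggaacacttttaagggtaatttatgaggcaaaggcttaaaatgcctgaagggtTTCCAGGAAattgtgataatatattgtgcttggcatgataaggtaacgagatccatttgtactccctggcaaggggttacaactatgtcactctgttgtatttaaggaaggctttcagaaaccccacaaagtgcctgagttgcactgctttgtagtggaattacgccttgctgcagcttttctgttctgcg
Chil3, chr3:106167565-106167814, minus strand: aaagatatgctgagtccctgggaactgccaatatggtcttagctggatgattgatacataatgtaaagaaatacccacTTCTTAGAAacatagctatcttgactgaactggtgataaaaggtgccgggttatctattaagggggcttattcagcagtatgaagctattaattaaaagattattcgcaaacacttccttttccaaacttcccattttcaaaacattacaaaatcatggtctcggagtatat

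In windows that add the 50 bases after the start, the motif with 4 free bases was found in 38 of the 531 genes with an entry that rose (7.16%, 95% exact interval 5.11 to 9.69%) and in 26 of 433 that fell (6.00%, 3.96 to 8.67%). Over all 9874 tested genes with an entry the share was 6.74%. Among genes that rose by at least 2 on the log2 scale, 9 of 67 held the motif (13.4%, 6.33 to 24.0%), and among those that fell by at least that much, 2 of 47 did (4.26%, 0.52 to 14.5%). The motif with 3 free bases was found in 7.16% of genes that rose, 8.31% of genes that fell and 8.29% of all tested genes with an entry. It was found in 8 of the 67 that rose by at least 2 on the log2 scale (11.9%, 5.3 to 22.2%) and in 1 of the 47 that fell by at least that much (2.13%, 0.0539 to 11.3%). A match describes letters in a short window and not a bound site.

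Mgl2, a galactose-binding C-type lectin also known as CD301b, had 118 and 147 CPM in IL-4 libraries, against 0.243 and 0.296 CPM in control libraries (log2 fold change 8.91, SE 0.34, adjusted p = 5.42e-06), the smallest p among the genes named here. Flt1, a receptor of VEGF, had 77.2 and 72.9 CPM in IL-4 libraries, against 0.0486 and 0.296 CPM in control libraries (log2 fold change 8.72, SE 0.53, adjusted p = 7.54e-05). Ocstamp, a membrane protein needed for fusion of osteoclasts and giant cells, had 83.7 and 79.8 CPM in IL-4 libraries, against 0.292 and 0.197 CPM in control libraries (log2 fold change 8.34, SE 0.72, adjusted p = 3.98e-04). All 3 genes were below 0.3 CPM in both control libraries. The log2 fold change of Flt1 was 7.95 without control library 1 and 10.4 without control library 2. Pdcd1lg2, which encodes the PD-1 ligand PD-L2, had 11.8 and 15.1 CPM in IL-4 libraries and a total of 518 counts, against 3 counts in control libraries, a ratio of 184 with a 95% counting interval of 62.7 to 896 (adjusted p = 5.42e-04).

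Tmem26, a membrane protein of little known function, had 133 and 148 CPM in IL-4 libraries, against 1.70 and 1.68 CPM in control libraries (log2 fold change 6.37, adjusted p = 7.54e-05). Slc7a2, a cationic amino acid transporter that imports arginine, had 362 and 377 CPM in IL-4 libraries, against 14.1 and 10.7 CPM in control libraries (log2 fold change 4.89, adjusted p = 0.00132). Chil3, the chitinase-like protein Ym1, had 564 and 482 CPM in IL-4 libraries, against 3.74 and 5.47 CPM in control libraries (log2 fold change 6.83, adjusted p = 0.00262). Without control library 1, Chil3 missed the threshold (adjusted p = 0.0583), and the other 14 of the 15 most increased genes kept the call whichever library was left out. Chil3 and Chil4 are near-identical copies, so the split of reads between them is uncertain. The rest of the 15 were Cish, described below, Il4i1, a secreted oxidase of phenylalanine, the RNA helicase gene Ddx4, the microtubule gene Map2, the cytokine receptor gene Il31ra and the ribonuclease gene Rnase2a.

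Some genes had reads in IL-4 libraries only. Il31ra, a receptor chain for IL-31, had 220 and 314 counts in IL-4 libraries, against 0 in both control libraries, and was at least 93.7-fold higher (adjusted p = 0.00198). Rnase2a, a member of a ribonuclease family with near-identical copies whose counts are uncertain, had 243 and 285 counts in IL-4 libraries, against 0 in both control libraries, and was at least 93.2-fold higher (adjusted p = 0.00257). The potassium channel gene Kcnd3 had 55 and 96 counts in IL-4 libraries, against 0 in both control libraries, and was at least 26.3-fold higher (adjusted p = 0.00771). The sodium channel gene Scn3a had 53 and 77 counts in IL-4 libraries, against 0 in both control libraries, and was at least 22.8-fold higher (adjusted p = 0.0206). In all, 10 called genes had 0 counts in both control libraries, and 2 had 0 counts in both IL-4 libraries. The better covered of those 2 was Cd300ld5, a paired receptor gene of a family with close copies, with 0 counts in both IL-4 libraries, against 37 and 51 in control libraries, at least 12.9-fold lower with IL-4 (adjusted p = 0.0218). Because of the close copies the count of Cd300ld5 is uncertain. In KO macrophages it had 0 counts in both control libraries and in both IL-4 libraries, so no decrease could be measured there.

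**Figure D2:**
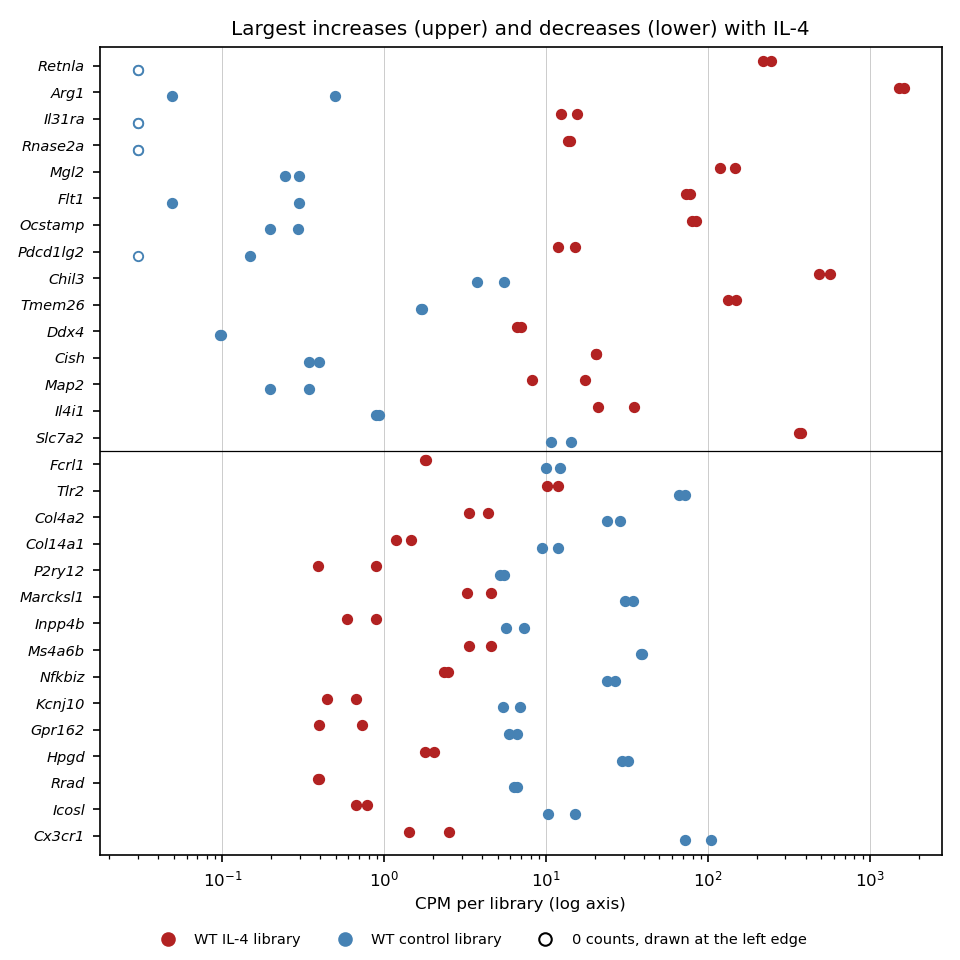
CPM of each WT library on a log axis for the 15 genes with the largest increase (upper rows) and the 15 with the largest decrease (lower rows) among called genes of at least 5 CPM in the higher group. Red points are IL-4 libraries, drawn above the blue control libraries, and open points mark 0 counts. The 2 groups do not overlap in any row, as for every called gene, and Retnla, Il31ra and Rnase2a have open points in both control libraries.

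The 15 most decreased genes included Cx3cr1, Icosl and Hpgd. Cx3cr1, the receptor of fractalkine on monocytes and resident macrophages, had 2.51 and 1.42 CPM in IL-4 libraries, against 104 and 71.7 CPM in control libraries (log2 fold change −5.49, SE 0.44, adjusted p = 2.77e-04). Icosl, a costimulatory ligand of T cells, had 0.669 and 0.786 CPM in IL-4 libraries, against 15.1 and 10.3 CPM in control libraries (log2 fold change −4.11, SE 0.33, adjusted p = 2.77e-04). Hpgd, the enzyme that inactivates prostaglandin E2, had 1.78 and 2.01 CPM in IL-4 libraries, against 31.7 and 29.2 CPM in control libraries (log2 fold change −4.00, SE 0.39, adjusted p = 7.33e-04). In each of these genes, picked for a large decrease, both IL-4 libraries lay far below both control libraries.

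Among the other strong decreases, Nfkbiz, an atypical IκB protein that acts with NF-κB in the nucleus, had 2.34 and 2.46 CPM in IL-4 libraries, against 23.9 and 26.4 CPM in control libraries (log2 fold change −3.39, adjusted p = 0.00507). Ms4a6b, a membrane protein of the MS4A family, had 3.35 and 4.57 CPM in IL-4 libraries, against 38.6 and 39.3 CPM in control libraries (log2 fold change −3.29, adjusted p = 0.0105). P2ry12, an ADP receptor best known from microglia and platelets, had 0.391 and 0.884 CPM in IL-4 libraries, against 5.20 and 5.52 CPM in control libraries (log2 fold change −3.04, adjusted p = 0.00888). Tlr2, the receptor of bacterial lipopeptides, had 10.1 and 11.9 CPM in IL-4 libraries, against 72.4 and 66.0 CPM in control libraries (log2 fold change −2.65, adjusted p = 0.00670). The rest of the 15 were Rrad, Gpr162, Kcnj10, Inpp4b, Marcksl1, Col14a1, Col4a2 and Fcrl1, with log2 fold changes of −4.02 to −2.61.

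These decreases were called less firmly than the increases when libraries were left out. Cx3cr1, Icosl, Hpgd and Fcrl1 kept the call without any 1 of the 4 libraries. Rrad, Gpr162, Ms4a6b, Marcksl1, Col14a1 and Col4a2 lost it whichever of the 4 was left out, with adjusted p of 0.0509 to 0.211. Nfkbiz lost it without IL-4 library 1 (0.0561) or IL-4 library 2 (0.0528). Tlr2, Kcnj10 and Inpp4b lost it without IL-4 library 1, IL-4 library 2 or control library 1, with adjusted p of 0.0524 to 0.0801. P2ry12 lost it without IL-4 library 1 (0.0818), control library 1 (0.0553) or control library 2 (0.0525), and its log2 fold change was −3.75 without IL-4 library 2.

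Within IL-4 signalling, 3 feedback inhibitors rose and 2 receptor chains fell. Of 26 genes of the receptor and STAT6 pathway, 4 rose and 3 fell (26.9% called, against 9.04% of all genes), and their median log2 fold change was −0.02, the same as over all genes tested. Cish, a SOCS family inhibitor of cytokine receptors, had 20.2 and 20.2 CPM in IL-4 libraries, against 0.340 and 0.394 CPM in control libraries (log2 fold change 5.75, SE 0.58, adjusted p = 8.01e-04). Socs2, of the same family, had 18.5 and 17.8 CPM in IL-4 libraries, against 0.729 and 0.887 CPM in control libraries (log2 fold change 4.48, adjusted p = 2.77e-04). Socs1, which blocks Janus kinases, had 11.3 and 9.72 CPM in IL-4 libraries, against 0.486 and 0.690 CPM in control libraries (log2 fold change 4.14, adjusted p = 7.47e-04). All 3 inhibitors kept the call without any 1 library. Their relative Socs3 was not called, at 0.335 and 0.982 CPM in IL-4 libraries, against 1.02 and 1.82 CPM in control libraries (adjusted p = 0.455).

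Il4ra, the ligand-binding chain of the receptor, fell to 41.4 and 44.8 CPM in IL-4 libraries, against 84.1 and 74.8 CPM in control libraries (log2 fold change −0.88, SE 0.18, adjusted p = 0.0193). Il13ra1, the partner chain that also binds IL-13, had 6.86 and 6.43 CPM in IL-4 libraries, against 11.1 and 12.9 CPM in control libraries (log2 fold change −0.85, adjusted p = 0.0275). Jak2, a Janus kinase, had 84.6 and 89.5 CPM in IL-4 libraries, against 39.3 and 37.6 CPM in control libraries (log2 fold change 1.18, adjusted p = 0.00513). Pik3r1, a regulatory subunit of PI3 kinase, was the other gene that fell (log2 fold change −0.41, adjusted p = 0.0287). Il4ra, Il13ra1 and Pik3r1 lost the call whichever library was left out, with adjusted p of 0.0793 to 0.179, and Jak2 lost it without control library 1 (0.0583) or control library 2 (0.0577). Stat6 itself was not called, at 196 and 209 CPM in IL-4 libraries, against 206 and 195 CPM in control libraries (log2 fold change 0.01, SE 0.10). With any 1 library left out, no gene of the pathway list fell, and 3 or 4 rose.

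Among transcription factors known from IL-4 macrophages, more rose than fell. Of 38 tested, 13 rose and 4 fell (44.7%), with a median log2 fold change of 0.52. Nfil3, a basic leucine zipper repressor, had 45.5 and 46.7 CPM in IL-4 libraries, against 7.78 and 8.62 CPM in control libraries (log2 fold change 2.49, SE 0.17, adjusted p = 1.51e-04). Bhlhe40, a repressor of the clock system that is also used by macrophages and T cells, had 208 and 212 CPM in IL-4 libraries, against 29.3 and 29.0 CPM in control libraries (log2 fold change 2.85, adjusted p = 0.00132). Egr2, a zinc finger factor, had 190 and 198 CPM in IL-4 libraries, against 32.7 and 34.3 CPM in control libraries (log2 fold change 2.54, adjusted p = 0.0017). The IL-4 libraries were more than 5 times as high as the control libraries in all 3 genes. Batf3, an AP-1 type factor best known from dendritic cells, had 29.4 and 17.3 CPM in IL-4 libraries, against 3.26 and 2.66 CPM in control libraries (log2 fold change 2.98, adjusted p = 5.05e-04).

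Myc, the growth regulator, had 53.0 and 56.7 CPM in IL-4 libraries, against 14.5 and 14.5 CPM in control libraries (log2 fold change 1.92, adjusted p = 0.0119). Irf4, Klf4 and Pparg, 3 factors linked to alternative activation that were singled out after their values were seen, rose by 3.58, 2.16 and 1.05 on the log2 scale (adjusted p = 0.00896, 0.0027 and 0.00955). Maf, a factor of resting macrophages, fell to 55.5 and 49.9 CPM in IL-4 libraries, against 234 and 265 CPM in control libraries (log2 fold change −2.24, SE 0.23, adjusted p = 9.14e-04). Rxra, Ppard and Tcf4 fell by 0.41, 0.92 and 0.60 on the log2 scale, with adjusted p of 0.0300 to 0.0484.

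Nfil3, Bhlhe40, Egr2, Batf3, Klf4 and Maf kept the call without any 1 library. Myc, Pparg, Rxra, Ppard and Tcf4 lost it whichever library was left out, with adjusted p of 0.0582 to 0.217. Irf4 lost it without IL-4 library 1 (0.0558), control library 1 (0.0942) or control library 2 (0.0898). The count of factors of this list that rose was 7, 8, 7 and 7 without IL-4 library 1, IL-4 library 2, control library 1 and control library 2, and that of factors that fell was 1 each time.

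Of 28 tested genes listed as M2 markers, 21 rose and 0 fell (75.0%), with a median log2 fold change of 4.05, or 3.42 with the 4 genes that had a whole group at 0 set to their bound. This list was drawn up from genes already known to respond to IL-4, and with earlier results of these data known. Its count and median are therefore a description only. Among members not named above, Gatm, which makes the creatine precursor guanidinoacetate, had 455 and 474 CPM in IL-4 libraries, against 129 and 128 CPM in control libraries (log2 fold change 1.85, adjusted p = 0.00132). Mrc1, the mannose receptor CD206 that is widely used as an M2 marker, had 914 and 1103 CPM in IL-4 libraries, against 407 and 456 CPM in control libraries (log2 fold change 1.23, SE 0.32, adjusted p = 0.0461). Gatm kept the call without any 1 library, and Mrc1 lost it whichever was left out, with adjusted p of 0.128 to 0.260. Members that were not called included Clec10a (log2 fold change 1.48, adjusted p = 0.202), Ccl22 (3.63, adjusted p = 0.134), Fn1 (1.88, adjusted p = 0.248) and Cd163 (−0.24, adjusted p = 0.822). Without control library 1 the number of M2 markers that rose was 13, and it was 15 to 17 without any other library.

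Among chemokines, 3 that attract monocytes rose and Cxcl16 fell. Of 24 tested, 3 rose and 1 fell (16.7%), with a median log2 fold change of 0.01. Ccl2, the ligand of CCR2, had 25.3 and 27.0 CPM in IL-4 libraries, against 2.87 and 3.40 CPM in control libraries (log2 fold change 3.06, SE 0.18, adjusted p = 7.54e-05). Ccl7, a ligand of the same receptor, had 16.7 and 20.6 CPM in IL-4 libraries, against 0.583 and 0.985 CPM in control libraries (log2 fold change 4.56, adjusted p = 7.80e-04). Ccl12, another gene of that cluster, had 31 counts in IL-4 libraries together, against 2 in control libraries, a ratio of 16.5 with a 95% counting interval of 4.21 to 143 (adjusted p = 0.0348), and lost the call whichever library was left out (0.0783 to 0.214). The 3 genes are close relatives, and how reads were divided among them is uncertain. Cxcl16, a membrane-bound chemokine that also takes up oxidised lipid, had 24.8 and 26.4 CPM in IL-4 libraries, against 97.9 and 96.5 CPM in control libraries (log2 fold change −1.92, SE 0.14, adjusted p = 2.09e-04).

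Among 24 chemokine and chemoattractant receptors, 2 rose and 4 fell (25%). Beside Cx3cr1, the receptor of sphingosine-1-phosphate S1pr1 fell to 16.5 and 18.0 CPM in IL-4 libraries, against 74.8 and 77.3 CPM in control libraries (log2 fold change −2.14, adjusted p = 8.32e-04). Cxcr3, a receptor of interferon-induced chemokines, had 0.279 and 0.196 CPM in IL-4 libraries, against 3.74 and 3.10 CPM in control libraries (log2 fold change −3.82, adjusted p = 0.00337). C5ar1, the receptor of complement fragment C5a, fell by 0.53 on the log2 scale (adjusted p = 0.0374). Ccr1, a receptor of CCL3 and CCL5, had 84.5 and 105 CPM in IL-4 libraries, against 32.1 and 36.0 CPM in control libraries (log2 fold change 1.47, adjusted p = 0.00518). Ltb4r1, the leukotriene B4 receptor, had 6.03 and 2.95 CPM in IL-4 libraries, against 0.194 and 0.246 CPM in control libraries (log2 fold change 4.30, adjusted p = 0.0244). Ccr1 lost the call without control library 1 (0.0730), and C5ar1 and Ltb4r1 lost it whichever library was left out (0.0596 to 0.223). Without IL-4 library 1 the log2 fold change of Ltb4r1 was 3.70. Ccr2, the receptor of CCL2, was not called (log2 fold change −0.07). With IL-4 library 1, IL-4 library 2, control library 1 and control library 2 left out in turn, 1, 1, 0 and 1 of these receptor genes rose and 3, 3, 3 and 3 fell.

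Of 35 cytokine and growth factor genes, 3 rose and 3 fell (17.1%). Pdgfa, a mitogen of mesenchymal cells, had 53.8 and 50.1 CPM in IL-4 libraries, against 18.3 and 22.3 CPM in control libraries (log2 fold change 1.35, adjusted p = 0.00467). Hbegf, an EGF receptor ligand, rose by 3.03 on the log2 scale (adjusted p = 0.00856), and Igf1, an insulin-like growth factor, rose by 0.61 (adjusted p = 0.0367). Gas6, which bridges dying cells to MERTK, had 57.0 and 64.1 CPM in IL-4 libraries, against 237 and 277 CPM in control libraries (log2 fold change −2.08, SE 0.23, adjusted p = 0.00132). Bmp2 and Il15 fell by 1.70 and 0.88 on the log2 scale (adjusted p = 0.0267 and 0.0135). Gas6 kept the call without any 1 library and Pdgfa lost it without control library 1 (0.0668). Igf1 and Bmp2 lost it whichever library was left out (0.117 to 0.200), and Hbegf and Il15 lost it without IL-4 library 1, control library 1 or control library 2 (0.0555 to 0.111). With IL-4 library 1, IL-4 library 2, control library 1 and control library 2 left out in turn, 1, 2, 0 and 1 cytokine and growth factor genes rose and 1, 2, 1 and 1 fell.

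Some genes of bacterial sensing fell. Of 33 Toll-like and other pattern receptor genes, 0 rose and 7 fell (21.2%), with a median log2 fold change of −0.25. Cd14, the co-receptor of lipopolysaccharide, had 46.6 and 44.6 CPM in IL-4 libraries, against 250 and 229 CPM in control libraries (log2 fold change −2.39, SE 0.18, adjusted p = 2.16e-04). Tlr2 is described above, and Nlrp3, the inflammasome sensor, had 6.47 and 8.40 CPM in IL-4 libraries, against 27.2 and 26.2 CPM in control libraries (log2 fold change −1.84, adjusted p = 0.0175). Irak2, a kinase adaptor of Toll-like receptors, fell by 0.77 on the log2 scale (adjusted p = 0.00836). Tlr9, Tlr13 and Irak3 completed the 7, and were named after their values were seen. Tlr4, the lipopolysaccharide receptor itself, was not called, at 166 and 180 CPM in IL-4 libraries, against 129 and 129 CPM in control libraries (log2 fold change 0.43, adjusted p = 0.290).

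Cd14 kept the call without any 1 library, and Nlrp3, Tlr9, Tlr13 and Irak3 lost it whichever was left out (0.0800 to 0.181). Irak2 lost it without IL-4 library 2 (0.0801) or control library 1 (0.0910). The count of pattern receptor genes that fell was 2, 1, 1 and 3 without IL-4 library 1, IL-4 library 2, control library 1 and control library 2. Of 30 listed M1 and inflammatory genes, 0 rose and 2 fell, Tlr2 and Nlrp3, with a median log2 fold change of −0.44. That is 6.67% called, below the 9.04% of all genes. None of 43 type I interferon-stimulated genes was called by edgeR, and 0 of them had an unadjusted p under 0.05, with a median of −0.22.

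Receptors that bind antibody, sugars and dead cells changed in both directions. Fcgr2b, the inhibitory IgG receptor, had 138 and 179 CPM in IL-4 libraries, against 19.2 and 26.4 CPM in control libraries (log2 fold change 2.80, SE 0.19, adjusted p = 1.44e-04). Fcgr1, the activating high-affinity IgG receptor, had 22.7 and 28.2 CPM in IL-4 libraries, against 87.7 and 86.6 CPM in control libraries (log2 fold change −1.77, adjusted p = 0.00837). The activating receptors Fcgr3 and Fcgr4 were not called (log2 fold change 0.21 and −0.07). Over 30 Fc and paired receptor genes, 3 rose and 6 fell (30.0%), with a median of −0.29. Cd300ld rose by 1.55 and Sirpb1a fell by 1.56 on the log2 scale (adjusted p = 0.00198 and 0.00139), and both belong to families of close copies, so their counts are uncertain. Fcgr2b kept the call without any 1 library, and Fcgr1 lost it whichever was left out (0.0524 to 0.0854). With IL-4 library 1, IL-4 library 2, control library 1 and control library 2 left out in turn, 2, 3, 2 and 2 Fc and paired receptor genes rose and 3, 2, 2 and 3 fell.

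Of 25 C-type lectin and galectin genes, 4 rose and 3 fell (28.0%). Clec7a, the β-glucan receptor dectin-1, had 737 and 816 CPM in IL-4 libraries, against 377 and 408 CPM in control libraries (log2 fold change 0.98, adjusted p = 0.00955). Lgals3, galectin-3, had 4819 and 4709 CPM in IL-4 libraries, against 2294 and 2330 CPM in control libraries (log2 fold change 1.04, adjusted p = 0.00905). Clec12a, an inhibitory lectin, had 162 and 149 CPM in IL-4 libraries, against 385 and 380 CPM in control libraries (log2 fold change −1.30, SE 0.10, adjusted p = 2.77e-04). Clec4d, a receptor of mycobacterial glycolipid, had 82.5 and 77.0 CPM in IL-4 libraries, against 256 and 262 CPM in control libraries (log2 fold change −1.70, adjusted p = 0.00164). Clec12a and Clec4d kept the call without any 1 library, while Clec7a and Lgals3 lost it whichever was left out (0.0512 to 0.109). The lectin and galectin genes that rose numbered 1, 1, 1 and 1 without IL-4 library 1, IL-4 library 2, control library 1 and control library 2, and those that fell 2, 3, 2 and 3.

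Some genes for removal of dying cells and for complement fell. Of 26 scavenger and efferocytosis genes, 1 rose and 5 fell (23.1%), and of 21 complement genes, 1 rose and 4 fell (23.8%, median −0.45). Stab1, a scavenger receptor for phosphatidylserine and modified lipoprotein, had 747 and 823 CPM in IL-4 libraries, against 2033 and 2044 CPM in control libraries (log2 fold change −1.38, adjusted p = 0.0110). Mertk, the receptor tyrosine kinase that binds Gas6, had 53.6 and 71.5 CPM in IL-4 libraries, against 119 and 117 CPM in control libraries (log2 fold change −0.92, adjusted p = 0.0184). C1qa, a chain of complement C1q, had 153 and 155 CPM in IL-4 libraries, against 332 and 414 CPM in control libraries (log2 fold change −1.27, adjusted p = 0.0127). Cd5l, a secreted protein of tissue macrophages, and C1qc fell by 2.21 and 0.56 on the log2 scale (adjusted p = 0.00998 and 0.0433). The scavenger and efferocytosis genes that fell numbered 1, 2, 1 and 1 without IL-4 library 1, IL-4 library 2, control library 1 and control library 2, and no complement gene then fell.

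Among 15 core macrophage genes, 6 fell and 1 rose (46.7%). The 6 were Cd14, Fcgr1, Lyz2, C1qa, Mertk and C1qc, and Lgals3 rose. Lyz2, the lysozyme of macrophages, had 3712 and 3565 CPM in IL-4 libraries, against 9303 and 9591 CPM in control libraries (log2 fold change −1.38, adjusted p = 0.0065). Csf1r, Adgre1, which encodes F4/80, Cd68, Itgam and the lineage factor Spi1 were not called (log2 fold changes −0.26, −0.56, 0.07, 0.08 and 0.18). Stab1, Cd5l, C1qa, C1qc and Lyz2 lost the call whichever library was left out (0.0531 to 0.250), and Mertk lost it without IL-4 library 1 (0.132), control library 1 (0.120) or control library 2 (0.0945). The count of core macrophage genes that fell was 1, 2, 1 and 1 without IL-4 library 1, IL-4 library 2, control library 1 and control library 2.

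Among genes of T cell contact, both PD-1 ligand genes rose. Beside Pdcd1lg2, Cd274, which encodes PD-L1, had 65.3 and 79.2 CPM in IL-4 libraries, against 33.2 and 33.3 CPM in control libraries (log2 fold change 1.12, SE 0.17, adjusted p = 0.00545). Icosl and Havcr2, the TIM-3 gene, fell, Havcr2 by 1.36 on the log2 scale (adjusted p = 0.0115). Thus of 17 costimulation and checkpoint genes 2 rose and 2 fell (23.5%, against 9.04% of all genes). Of 16 genes of MHC class II presentation, 1 rose (6.25%), the lysosomal protease gene Ctsl (log2 fold change 0.77, adjusted p = 0.0326). H2-Aa, H2-Eb1 and Cd74 had values of 0.96, 1.32 and 0.97 and were not called (adjusted p = 0.593, 0.454 and 0.364). The MHC class II list had a median of 0.59. Of 18 MHC class I genes, 1 rose (5.56%), the immunoproteasome subunit Psmb10 (log2 fold change 1.43, adjusted p = 0.00763). Havcr2 and Ctsl lost the call whichever library was left out (0.0546 to 0.219). Cd274 lost it without IL-4 library 2, control library 1 or control library 2 (0.0539 to 0.0740), and Psmb10 without IL-4 library 1, control library 1 or control library 2 (0.0627 to 0.0893). Fewer of the costimulation and checkpoint genes were called with any 1 library left out.

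**Figure D3:**
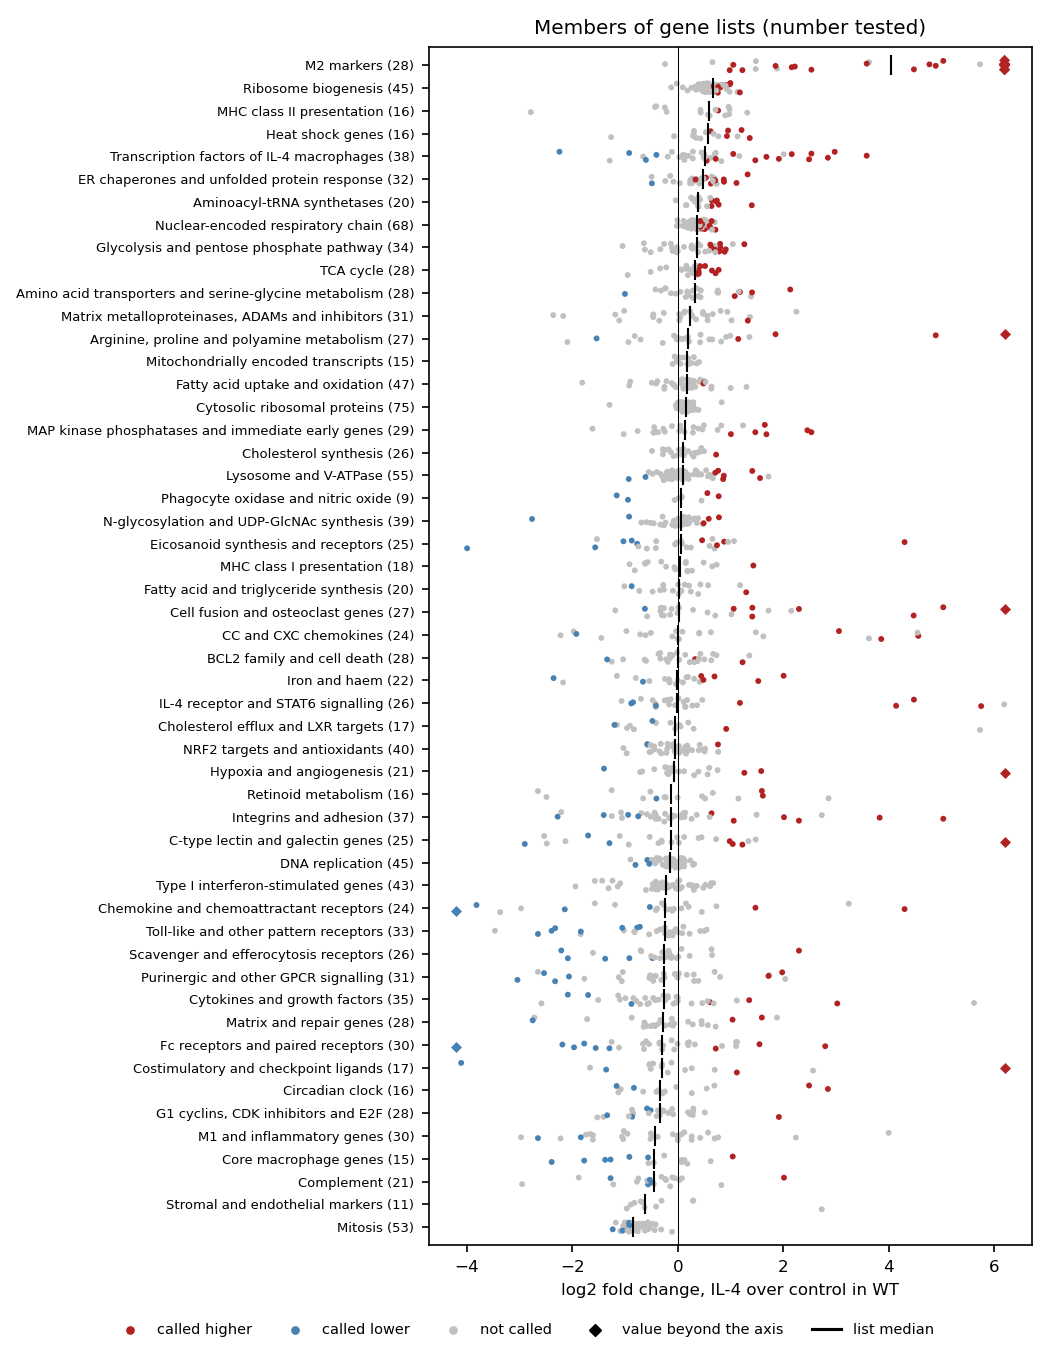
Log2 fold change of IL-4 over control in WT for the tested members of each gene list with at least 9 tested genes, ordered by the list's median (black bar), with the number tested in brackets. Red members rose, blue members fell and grey members were not called, and diamonds lie beyond the axis. M2 markers have the highest median (4.05) and mitosis genes the lowest (−0.85), with all 53 mitosis genes below 0.

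Some genes of energy metabolism rose by small amounts. Of 68 nuclear-encoded respiratory chain genes, 15 rose and 0 fell (22.1%), 66 had a positive value, and the median log2 fold change was 0.37. Of 28 TCA cycle genes, 10 rose and 0 fell (35.7%), with a median of 0.32. Of 34 genes of glycolysis and the pentose phosphate pathway, 9 rose and 0 fell (26.5%), with a median of 0.36. None of 15 mitochondrially encoded transcripts was called by edgeR, with 0 at an unadjusted p under 0.05 and a median of 0.18. Across these lists, then, the genes that passed the test all rose, and each by under 1.3 on the log2 scale.

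Mdh2, the mitochondrial malate dehydrogenase, had 176 and 168 CPM in IL-4 libraries, against 101 and 100 CPM in control libraries (log2 fold change 0.78, SE 0.09, adjusted p = 0.0013). Atp5g3, a subunit of ATP synthase, had 179 and 176 CPM in IL-4 libraries, against 113 and 115 CPM in control libraries (log2 fold change 0.64, adjusted p = 0.00817). Uqcrc1, of complex III, rose by 0.52 on the log2 scale (adjusted p = 0.0113). Pfkp, the platelet-type phosphofructokinase of glycolysis, had 146 and 145 CPM in IL-4 libraries, against 86.1 and 80.8 CPM in control libraries (log2 fold change 0.80, SE 0.11, adjusted p = 0.00337). Ldha, lactate dehydrogenase A, had 779 and 722 CPM in IL-4 libraries, against 398 and 401 CPM in control libraries (log2 fold change 0.91, adjusted p = 0.00607). The glucose transporter gene Slc2a1 rose by 1.26 on the log2 scale (adjusted p = 0.0259) and hexokinase 2, Hk2, by 0.89 (adjusted p = 0.00607).

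Mdh2 and Pfkp kept the call without any 1 library. Atp5g3, Uqcrc1 and Slc2a1 lost it whichever was left out (0.0562 to 0.176), and Ldha and Hk2 lost it without IL-4 library 1, control library 1 or control library 2 (0.0587 to 0.0797). The list counts fell when a library was left out, as did calls over all genes. Without IL-4 library 1, IL-4 library 2, control library 1 and control library 2, the respiratory chain genes that rose numbered 0, 1, 0 and 0, the TCA cycle genes 1 each time, and the glycolytic genes 1, 4, 1 and 1.

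Of 27 genes of arginine, proline and polyamine metabolism, 4 rose and 1 fell (18.5%, against 9.04% of all genes). Those that rose were Arg1, Slc7a2, Gatm and Srm, and the 1 that fell was Ddah2, named as a dimethylarginine hydrolase, by 1.54 on the log2 scale (adjusted p = 0.0271). Srm, spermidine synthase, had 28.7 and 23.4 CPM in IL-4 libraries, against 9.82 and 13.7 CPM in control libraries (log2 fold change 1.15, adjusted p = 0.0378). Nos2, the nitric oxide synthase that competes for arginine, was near 0, at 0 and 0.0491 CPM in IL-4 libraries, against 0 and 0.0493 CPM in control libraries. Phgdh, the entry enzyme of serine synthesis, had 50.9 and 38.9 CPM in IL-4 libraries, against 10.7 and 9.75 CPM in control libraries (log2 fold change 2.13, adjusted p = 0.0164), and Psat1 rose by 1.18 (adjusted p = 0.0322). Gpt2, a mitochondrial alanine transaminase, had 28.7 and 29.2 CPM in IL-4 libraries, against 11.4 and 10.4 CPM in control libraries (log2 fold change 1.41, adjusted p = 0.00217). Of 28 genes of amino acid transport and serine-glycine metabolism, 4 rose and 1 fell (17.9%), and the 1 that fell was Slc7a7, a subunit of a transporter that exports cationic amino acids, at 8.87 and 11.98 CPM in IL-4 libraries, against 20.7 and 21.2 CPM in control libraries (adjusted p = 0.0329). Gpt2 kept the call without any 1 library, and Srm, Phgdh, Psat1 and Slc7a7 lost it whichever was left out (0.0585 to 0.260). Ddah2 lost it without IL-4 library 2, control library 1 or control library 2 (0.11 to 0.165). The serine and amino acid transport genes that rose numbered 1 with any 1 library left out.

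Genes of iron handling changed in both directions. Of 22 iron and haem genes, 5 rose and 2 fell (31.8%). Tfrc, the transferrin receptor that imports iron, had 514 and 687 CPM in IL-4 libraries, against 142 and 157 CPM in control libraries (log2 fold change 2.01, SE 0.25, adjusted p = 0.00223). Slc40a1, ferroportin, the exporter of iron, had 54.2 and 53.5 CPM in IL-4 libraries, against 285 and 266 CPM in control libraries (log2 fold change −2.36, SE 0.50, adjusted p = 0.0220). Alas1, the first enzyme of haem synthesis, rose by 1.53 on the log2 scale (adjusted p = 0.00507), and Slc11a1, the NRAMP metal transporter of phagosomes, fell by 0.66 (adjusted p = 0.0101). The ferritin genes Fth1 and Ftl1 were not called (log2 fold change −0.04 and 0.00). Tfrc kept the call without any 1 library, Slc40a1 and Slc11a1 lost it whichever was left out (0.0675 to 0.136), and Alas1 lost it without control library 1 (0.0653) or control library 2 (0.0531). The iron genes that rose numbered 2, 2, 1 and 1 without IL-4 library 1, IL-4 library 2, control library 1 and control library 2, and none then fell.

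Of 47 genes of fatty acid uptake and oxidation, 2 rose and 0 fell (4.26%, median 0.17), and of 26 cholesterol synthesis genes, 1 rose and 0 fell (3.85%, median 0.10), both below the 9.04% of all genes called. Of 20 genes of fatty acid and triglyceride synthesis, 1 rose and 1 fell (10.0%), and of 17 genes of cholesterol efflux and LXR targets, 1 rose and 2 fell (17.6%). Agpat3, an acyltransferase of phospholipid synthesis, had 182 and 178 CPM in IL-4 libraries, against 75.6 and 70.9 CPM in control libraries (log2 fold change 1.30, adjusted p = 0.00227). Abcg1, a cholesterol exporter, had 345 and 360 CPM in IL-4 libraries, against 195 and 178 CPM in control libraries (log2 fold change 0.92, adjusted p = 0.00311). Both kept the call without any 1 library. Lpin2, a phosphatidate phosphatase, fell by 0.87 on the log2 scale (adjusted p = 0.00552) and lost the call without IL-4 library 1 (0.0632) or control library 1 (0.0543). Mylip, a ubiquitin ligase for the LDL receptor, and Scarb1, a receptor of HDL, fell by 1.20 and 0.48 (adjusted p = 0.0135 and 0.0436) and lost the call whichever library was left out (0.0742 to 0.278). Apoe was not called, at 7607 and 4214 CPM in IL-4 libraries, against 11240 and 11790 CPM in control libraries (log2 fold change −0.96, adjusted p = 0.0769). No gene of fatty acid oxidation or cholesterol synthesis kept its call with any 1 library left out.

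Of 25 eicosanoid genes, 4 rose and 5 fell (36.0%). Beside Hpgd, Ptger4, a receptor of prostaglandin E2, had 9.21 and 8.0 CPM in IL-4 libraries, against 25.2 and 25.8 CPM in control libraries (log2 fold change −1.57, adjusted p = 0.00545). Ptger2, another receptor of prostaglandin E2, had 23.7 and 26.8 CPM in IL-4 libraries, against 13.6 and 13.9 CPM in control libraries (log2 fold change 0.88, adjusted p = 0.0311). Tbxas1, thromboxane synthase, rose by 0.74 and Hpgds, prostaglandin D synthase, fell by 1.03 on the log2 scale (adjusted p = 0.0214 and 0.0185). Ptger4 lost the call without IL-4 library 2 (0.0606), and Ptger2, Tbxas1 and Hpgds lost it whichever library was left out (0.0852 to 0.201). The eicosanoid genes that fell numbered 3, 2, 2 and 3 without IL-4 library 1, IL-4 library 2, control library 1 and control library 2, and none then rose.

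Some genes of ribosome assembly, tRNA charging and protein folding rose. Of 45 ribosome biogenesis genes, 12 rose and 0 fell (26.7%), 43 had a positive value, and the median log2 fold change was 0.67. Of 20 aminoacyl-tRNA synthetases, 6 rose and 0 fell (30.0%, median 0.39), and of 32 genes of endoplasmic reticulum chaperones and the unfolded protein response, 11 rose and 1 fell (37.5%, median 0.47). None of 75 cytosolic ribosomal proteins was called by edgeR, with 1 at an unadjusted p under 0.05 and a median of 0.16. Of 16 heat shock genes, 5 rose and 0 fell (31.2%, median 0.58).

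Pdia4, a protein disulfide isomerase, had 183 and 204 CPM in IL-4 libraries, against 74.8 and 79.8 CPM in control libraries (log2 fold change 1.32, SE 0.10, adjusted p = 2.77e-04). Calr, the chaperone calreticulin, had 1290 and 1314 CPM in IL-4 libraries, against 584 and 618 CPM in control libraries (log2 fold change 1.11, SE 0.13, adjusted p = 0.00138). Hsph1, a large heat shock protein, had 120 and 110 CPM in IL-4 libraries, against 45.6 and 43.8 CPM in control libraries (log2 fold change 1.37, adjusted p = 0.00238). These 3 kept the call without any 1 library. Rars, arginyl-tRNA synthetase, had 166 and 175 CPM in IL-4 libraries, against 62.2 and 66.8 CPM in control libraries (log2 fold change 1.40, adjusted p = 0.00672), and lost the call without control library 1 (0.0834) or control library 2 (0.0576). Nolc1 and Nop16, nucleolar factors of ribosome assembly, rose by 0.92 and 0.99 on the log2 scale (adjusted p = 0.0122 and 0.0234), and lost the call whichever library was left out (0.0710 to 0.163). Without IL-4 library 1, IL-4 library 2, control library 1 and control library 2, ribosome biogenesis genes that rose numbered 1, 0, 0 and 0, synthetases 1, 1, 0 and 0, and chaperone genes 3, 3, 2 and 2. The heat shock genes that rose then numbered 1, 2, 1 and 1.

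Mitosis genes had negative values throughout, but few passed the test. All 53 tested had a negative log2 fold change, with a median of −0.85, and 33 had an unadjusted p under 0.05, but 5 were called (9.43%, close to the 9.04% of all genes). Top2a, the topoisomerase that untangles chromosomes, had 253 and 262 CPM in IL-4 libraries, against 492 and 484 CPM in control libraries (log2 fold change −0.92, SE 0.24, adjusted p = 0.0453). Cenpf, a kinetochore protein, had 35.4 and 36.0 CPM in IL-4 libraries, against 84.1 and 84.0 CPM in control libraries (log2 fold change −1.23, SE 0.33, adjusted p = 0.0486). Mki67, the Ki-67 proliferation antigen, was not called, at 284 and 316 CPM in IL-4 libraries, against 592 and 547 CPM in control libraries (log2 fold change −0.92, adjusted p = 0.112). The list summed to 2607 and 2723 CPM in IL-4 libraries, against 4742 and 4586 CPM in control libraries, with no overlap.

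DNA replication genes moved less. Of 45, 3 fell and 0 rose (6.67%), with a median of −0.14, and the 3 were Pole, Lig1 and Tk1. Pole, the leading-strand DNA polymerase, had 33.1 and 34.3 CPM in IL-4 libraries, against 52.0 and 48.6 CPM in control libraries (log2 fold change −0.58, adjusted p = 0.0112). Among 28 genes of G1 control, Myc rose and 4 fell (17.9%). Of those 4, E2f2 had a log2 fold change of −0.86 and E2f7 of −1.34 (adjusted p = 0.0234 and 0.0296). No mitosis or replication gene kept its call when 1 library was left out, whichever it was. Top2a, Cenpf, Pole, Lig1, Tk1, E2f2 and E2f7 then had adjusted p of 0.0657 to 0.218.

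Some lysosome and cell fusion genes rose. Of 55 genes of lysosomes and the V-ATPase, the pump that acidifies them, 6 rose and 2 fell (14.5%, median 0.09). Atp6v0a1, a membrane subunit of the pump, had 826 and 874 CPM in IL-4 libraries, against 286 and 291 CPM in control libraries (log2 fold change 1.56, SE 0.16, adjusted p = 9.63e-04). Psap, the precursor of saposins that help digest sphingolipids, had 15090 and 14880 CPM in IL-4 libraries, against 8168 and 8331 CPM in control libraries (log2 fold change 0.86, adjusted p = 0.0131). Of 27 genes of fusion and osteoclasts, 7 rose and 1 fell (29.6%, median 0.02). Beside Ocstamp, Acp5, tartrate-resistant acid phosphatase, had 166 and 171 CPM in IL-4 libraries, against 66.5 and 60.0 CPM in control libraries (log2 fold change 1.42, adjusted p = 0.00238). Nfatc1, the factor that drives osteoclast formation, fell by 0.62 on the log2 scale (adjusted p = 0.0249). Atp6v0a1 and Acp5 kept the call without any 1 library, and Psap and Nfatc1 lost it whichever was left out (0.0826 to 0.165). The lysosomal genes that rose numbered 1, 3, 1 and 2 without IL-4 library 1, IL-4 library 2, control library 1 and control library 2, and the fusion genes 4, 5, 4 and 5.

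Adhesion genes changed in both directions. Of 37 genes, 6 rose and 4 fell (27.0%). Itgax, which encodes CD11c, had 666 and 649 CPM in IL-4 libraries, against 166 and 159 CPM in control libraries (log2 fold change 2.02, SE 0.30, adjusted p = 0.00513). Itgb3, the β3 integrin of vitronectin receptors, had 48.8 and 43.4 CPM in IL-4 libraries, against 8.70 and 10.0 CPM in control libraries (log2 fold change 2.30, adjusted p = 0.00187). Cd44, the hyaluronan receptor, rose by 1.06 on the log2 scale (adjusted p = 0.00114). Itga6, the α6 laminin-binding integrin, had 96.6 and 93.0 CPM in IL-4 libraries, against 253 and 249 CPM in control libraries (log2 fold change −1.40, adjusted p = 0.00392). Itga4, the α4 integrin, fell by 0.94 on the log2 scale (adjusted p = 0.00254). Itgb3, Cd44, Itga6 and Itga4 kept the call without any 1 library, and Itgax lost it without control library 1 (0.0628) or control library 2 (0.0589). The adhesion genes that rose numbered 4, 5, 2 and 2 without IL-4 library 1, IL-4 library 2, control library 1 and control library 2, and 2 fell each time.

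In the phagocyte oxidase, Cybb, the catalytic subunit, had 368 and 474 CPM in IL-4 libraries, against 942 and 937 CPM in control libraries (log2 fold change −1.16, adjusted p = 0.00515), and Ncf1 fell by 0.94 on the log2 scale (adjusted p = 0.00467). Hvcn1, the proton channel that balances the oxidase's charge, rose by 0.78 (adjusted p = 0.00818). Ncf4, another oxidase gene, also rose (adjusted p = 0.0306). Its log2 fold change was 0.54 to 0.59 when 1 library was left out, and the call was lost whichever library that was. Of 9 genes of the phagocyte oxidase and nitric oxide, 2 rose and 2 fell (44.4%), with a median log2 fold change of 0.07. Of 31 purinergic and other G protein-coupled receptor genes, 2 rose and 4 fell (19.4%). P2ry1, an ADP receptor, had 39.4 and 35.3 CPM in IL-4 libraries, against 8.99 and 9.90 CPM in control libraries (log2 fold change 1.98, SE 0.17, adjusted p = 3.84e-04), while P2ry12, named above, fell. The receptor genes of this last list that fell numbered 2, 2, 1 and 2 without IL-4 library 1, IL-4 library 2, control library 1 and control library 2.

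Of 29 MAP kinase phosphatase and immediate early genes, 6 rose and 0 fell (20.7%). Dusp4, a nuclear MAP kinase phosphatase, had 100 and 78.6 CPM in IL-4 libraries, against 14.9 and 17.6 CPM in control libraries (log2 fold change 2.46, adjusted p = 8.85e-04). Atf3 and Fosl2, transcription factors of the AP-1 and ATF families, rose by 1.47 and 1.68 on the log2 scale (adjusted p = 0.00187 and 0.00262). P2ry1, Dusp4, Atf3 and Fosl2 kept the call without any 1 library. Cybb lost it without IL-4 library 1 (0.0639) or control library 1 (0.0543), Ncf1 lost it without IL-4 library 1 (0.0555) or control library 1 (0.0543), and Hvcn1 lost it without IL-4 library 2, control library 1 or control library 2 (0.0708 to 0.0893).

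Most called genes belonged to none of the 59 lists, namely 500 of the 665 that rose and 471 of the 557 that fell. By smallest p among these, Tmem268, a transmembrane protein of little known function, led the genes that rose, with 70.4 and 69.5 CPM in IL-4 libraries, against 24.2 and 25.3 CPM in control libraries (log2 fold change 1.50, SE 0.09, adjusted p = 7.54e-05). Fyn, a Src family kinase, had 95.6 and 84.8 CPM in IL-4 libraries, against 28.3 and 28.0 CPM in control libraries (log2 fold change 1.68, SE 0.10, adjusted p = 7.54e-05). Inpp5a, a phosphatase of inositol trisphosphate, had 62.7 and 58.0 CPM in IL-4 libraries, against 15.7 and 16.6 CPM in control libraries (log2 fold change 1.91, adjusted p = 1.73e-04). In all 3 genes the spread within each group was far below the distance between the groups, which picking genes by smallest p favours.

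Flrt2, a membrane protein with leucine-rich repeats that guides axons and cells, had 275 and 271 CPM in IL-4 libraries, against 36.3 and 34.9 CPM in control libraries (log2 fold change 2.94, SE 0.22, adjusted p = 2.65e-04). Mcf2l, a guanine nucleotide exchange factor, had 74.4 and 85.1 CPM in IL-4 libraries, against 5.98 and 7.44 CPM in control libraries (log2 fold change 3.57, adjusted p = 2.98e-04). F7, which encodes coagulation factor VII, had 65.7 and 62.0 CPM in IL-4 libraries, against 7.24 and 8.42 CPM in control libraries (log2 fold change 3.03, adjusted p = 5.22e-04). Smap2, which regulates ARF GTPases, had 420 and 418 CPM in IL-4 libraries, against 105 and 100 CPM in control libraries (log2 fold change 2.03, adjusted p = 3.20e-04). The other 5 of the 12 genes with the smallest p that rose were Pde12, Pcid2, Rnf19b, Nxn and Timm8a1, with log2 fold changes of 1.15 to 2.35.

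Among genes in no list that fell, Pmp22, a tetraspan protein best known from myelin, had 102 and 109 CPM in IL-4 libraries, against 230 and 229 CPM in control libraries (log2 fold change −1.12, SE 0.09, adjusted p = 2.80e-04). Adra1a, the α1A adrenergic receptor, had 9.21 and 9.23 CPM in IL-4 libraries, against 44.6 and 46.6 CPM in control libraries (log2 fold change −2.31, SE 0.19, adjusted p = 2.98e-04). Ampd3, an AMP deaminase, had 18.4 and 20.8 CPM in IL-4 libraries, against 56.7 and 60.7 CPM in control libraries (log2 fold change −1.58, adjusted p = 4.16e-04). In all 3 genes both IL-4 libraries lay below both control libraries, as in every called gene that fell and in 33.3% of all genes tested. Orai2, a subunit of store-operated calcium channels, fell by 1.95 on the log2 scale (adjusted p = 5.28e-04), and Tgfbr2, the type II receptor of TGF-β, fell to 87.1 and 98.7 CPM in IL-4 libraries, against 183 and 203 CPM in control libraries (log2 fold change −1.05, adjusted p = 0.00123). The other 7 of these 12 were Nbeal2, Sh3pxd2a, Fbxl4, Ssh2, Arhgap27, Ogfrl1 and Tifa, with log2 fold changes of −2.35 to −0.96. The genes named here from no list, rising or falling, kept the call without any 1 library, which picking genes by smallest p also favours.

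Families of at least 10 tested genes were defined by a shared root of the gene symbol, and those named first here were picked for their high share of called members, with no test. Of 10 genes with the root Itga, 4 fell and 0 rose (40.0%, against 9.04% of all genes). This root leaves out integrin α chains named with another letter, such as Itgax, which rose. Of 10 proteasome β subunit genes, 4 rose and 0 fell (40.0%). Of 14 genes of the mitochondrial inner membrane import family Timm, 5 rose and 0 fell (35.7%), with a median log2 fold change of 0.38. Of 46 genes with the root Il, 9 rose and 5 fell (30.4%). At the other end, against 9.04% of all genes, 1.78% of 338 genes with the root Zfp and 1.2% of 83 with the root Rpl were called, and none of 33 with the root Rbm was. Across chromosomes, the share of genes called ran from 7.42% on chromosome 4 to 12.6% on chromosome 14.

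The response was also measured in KO macrophages, whose 4 IL-4 and control libraries are separate from those of WT. In KO cells 928 genes were called (6.86%), 476 that rose (3.52%) and 452 that fell (3.34%). Of the 665 genes that rose in WT, 661 (99.4%) also had a positive value in KO and 331 (49.8%) were called in KO as well. Of the 557 that fell in WT, 544 (97.7%) had a negative value in KO and 296 (53.1%) were called. Over all genes tested, 73.2% had the same sign in WT and KO. Seen from KO, 69.5% of the genes that rose and 65.5% of those that fell were called the same way in WT. None was called in opposite directions. Because the genes were selected by the WT test, their smaller median change in KO, 0.63 for those that rose and −0.79 for those that fell, is a description and not a test. Leaving out KO IL-4 library 2 left 425 KO calls, and leaving out KO control library 1 left 310.

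The difference between the genotypes in the IL-4 response was tested as an interaction. No gene was called by edgeR, the smallest adjusted p was 0.616, and 604 of 13525 genes had an unadjusted p under 0.05. The DESeq2 Wald test called 6 genes, edgeR without the filter on low counts called 23, and edgeR without KO control library 2 called 11. Among genes called in WT, Ccl2 had the smallest unadjusted interaction p (2.27e-04, adjusted p = 0.9999). In KO macrophages it had 24.5 and 22.1 CPM in IL-4 libraries, against 7.28 and 7.46 CPM in control libraries (log2 fold change 1.66, against 3.06 in WT). Col4a2, a chain of basement membrane collagen, had 9.78 and 27.9 CPM in KO IL-4 libraries, against 15.6 and 13.2 CPM in KO control libraries (log2 fold change 0.39, against −2.75 in WT). A p that misses the threshold does not show that the genotypes respond alike.

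**Figure D4:**
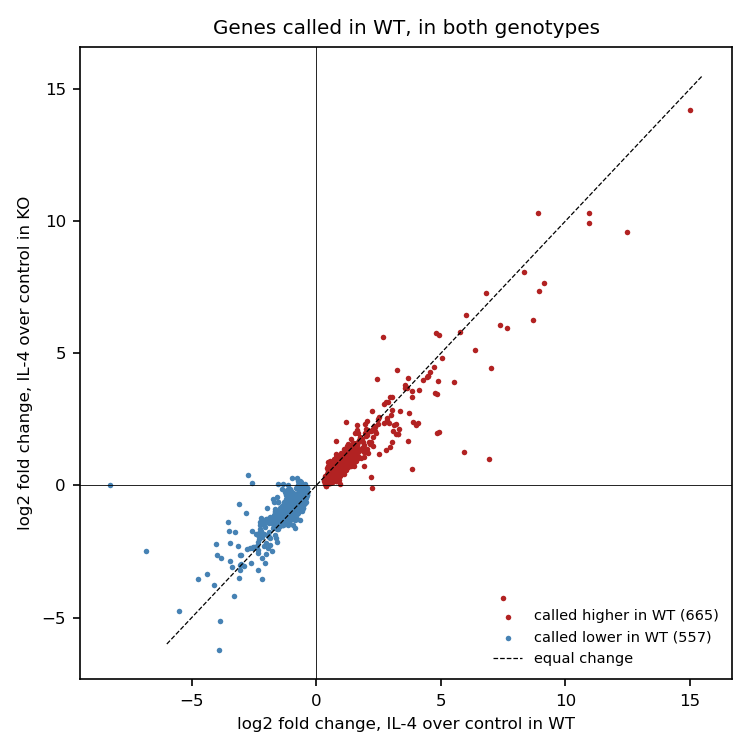
Log2 fold change of IL-4 over control in WT (horizontal axis) and in KO (vertical axis) for the genes called in WT, red for the 665 that rose and blue for the 557 that fell. The dashed line marks an equal change in both genotypes. Of the red points, 661 lie above 0 on the KO axis, and of the blue points, 544 lie below it.

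Leading genes of the response were also measured in KO cells. Arg1 had 1454 and 1357 CPM in KO IL-4 libraries, against 1.24 and 2.39 CPM in KO control libraries (log2 fold change 9.60, adjusted p = 3.92e-04). Mgl2 had 84.6 and 53.9 CPM in KO IL-4 libraries, against 0.0461 and 0.0488 CPM in KO control libraries. Cx3cr1 had 2.24 and 2.51 CPM in KO IL-4 libraries, against 77.9 and 49.3 CPM in KO control libraries (log2 fold change −4.74, adjusted p = 5.78e-04). The direction was that of the WT cells in each.

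LPS with IFNγ, the other stimulus of the series, gives a scale for these changes, and its WT libraries were compared directly with the WT IL-4 libraries. That comparison called 56.2% of genes, and LPS+IFNγ against control called 54.3%. Arg1 was above the control in both, at 1499 and 1612 CPM in IL-4 libraries, against 498 and 383 CPM in LPS+IFNγ libraries (log2 fold change 1.82, SE 0.53, adjusted p = 0.0150). Ccl2 had 25.3 and 27.0 CPM in IL-4 libraries, against 607 and 528 CPM in LPS+IFNγ libraries (log2 fold change −4.44, adjusted p = 1.90e-07). Cd274 had 65.3 and 79.2 CPM in IL-4 libraries, against 4512 and 4124 CPM in LPS+IFNγ libraries (log2 fold change −5.90, adjusted p = 1.50e-07). So 2 genes that were higher with IL-4 than in control stood much higher after LPS+IFNγ.

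Some genes that were lower with IL-4 than in control were high after LPS+IFNγ. Ms4a6b had 3.35 and 4.57 CPM in IL-4 libraries, against 1116 and 1047 CPM in LPS+IFNγ libraries (log2 fold change −8.09, adjusted p = 9.30e-06). Maf had 55.5 and 49.9 CPM in IL-4 libraries, against 501 and 519 CPM in LPS+IFNγ libraries (log2 fold change −3.28, adjusted p = 4.35e-06). Il4ra had 41.4 and 44.8 CPM in IL-4 libraries, against 739 and 704 CPM in LPS+IFNγ libraries (log2 fold change −4.07, adjusted p = 5.48e-07). Tfrc had the other order, with 514 and 687 CPM in IL-4 libraries, against 39.2 and 41.7 CPM in LPS+IFNγ libraries (log2 fold change 3.89, adjusted p = 3.19e-06). Cx3cr1 was low after both, at 2.51 and 1.42 CPM in IL-4 libraries, against 0.749 and 0.610 CPM in LPS+IFNγ libraries, and was not called between them (adjusted p = 0.0521).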

How the data were processed

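RNA of mouse bone marrow macrophages was sequenced in 12 libraries with a directional kit, per the labels' protocols. The table the authors deposited holds whole numbers per gene, taken here to be expected counts (estimated counts, already rounded). The submitters' processing notes name Salmon 1.10.2, DESeq2 1.45.3, R 4.4.1, FastQC 0.11.9 and GRCm39, with no role given. Of 55891 gene identifiers, 92.0% matched a symbol in GENCODE M21 on GRCm38.

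Counts were analysed in R 4.3.3 with edgeR 4.0.16: filterByExpr, TMM factors, 1 coefficient per group over all 12 libraries and the quasi-likelihood F test, with Benjamini-Hochberg adjustment over all 13525 tested genes and a threshold of 0.05. All adjusted p-values in the text are from edgeR. The SE is the log2 fold change divided by the square root of F. Total counts were 16239656 and 18328711 in WT IL-4 libraries, 17833526 and 17505261 in WT control libraries, and 13665607 to 19555600 over all 12. Intervals and the floor of 3 counts cover counting error only. The test was checked on simulated counts with 200 changed genes.

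Named genes were the 15 called genes with the largest change each way at 5 CPM or more in the higher group, up to 4 called members per list and direction by p, 12 called genes in no list each way, genes with 0 counts in a group, the 6 smallest interaction p-values and the IL-4 receptor list. Other genes were singled out after their values were seen. Members and lists were chosen with earlier results of these data known. Alternatives were another scaling, no filter, DESeq2 1.42.0, fewer libraries in the fit, a replicate block, a stricter call and each library left out. Promoter sequences and motifs were read from the RefSeq table of 300-base windows with Python 3.11.15.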

Additional observations from a re-analysis of the deposited data

How the results depend on the processing

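For IL-4 against control in WT, DESeq2 called 1897 genes (901 lower), the fit to the 6 WT libraries 3653 (1941 higher, 1712 lower), and that to the 4 libraries compared 3475 (1859 higher, 1616 lower). Without the filter on low counts 856 genes were called lower. A log2 fold change of at least 1 left 507 (244 higher, 263 lower). With the library number as a replicate block within genotype, 2064 genes were called (1030 higher, 1034 lower); the labels do not say that equal numbers mark a shared culture, and the correlation of deviations between same-numbered WT IL-4 and control libraries was 0.337. With each WT library left out in turn, calls ranged from 175 to 293, those higher from 103 to 193 and those lower from 72 to 111. The share of calls that were higher was 54.4% with all libraries, 64.4% without IL-4 library 1 and 65.9% without IL-4 library 2. No called gene turned in sign under any of these settings.

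In KO, 1620 genes were called without the filter, 1673 by DESeq2, 1577 with the block and 418 with a log2 fold change of at least 1, and 310 to 1075 with a library left out. The interaction had 23 calls without the filter, 6 by DESeq2 and 0 to 11 with a library left out. Stat6, which was not called, had a log2 fold change of −0.033 without IL-4 library 2, was also below 0 without control library 2, and reached 0.061 with another library left out. The causes were not tested. With 2 libraries a group, small changes and genes of few counts were not detectable reliably.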
